A study of Mus musculus with 18 samples.

Results

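The lungs of resiquimod-treated A/J mice were compared with those of resiquimod-treated C57BL/6 mice across all 45037 probe sets of the Affymetrix mouse expression array that are not Affymetrix controls. The 6 arrays were taken by their labels, as the 3 A/J and the 3 C57BL/6 samples given resiquimod and ovalbumin, out of 18 arrays in the series. Every mouse in the series was male, 16 weeks old and sensitized with 3 weekly intraperitoneal injections of 100 µg ovalbumin in alum. The A/J resiquimod group and the C57BL/6 resiquimod group (3 mice each) received 100 µg resiquimod intraperitoneally on 3 days, beginning the day before the first of 3 daily aerosol challenges with 1% ovalbumin. These challenges began 7 days after the last sensitization and lasted 30 min each. The A/J and C57BL/6 ovalbumin groups had the same challenge without resiquimod, and the A/J and C57BL/6 PBS groups inhaled PBS, with 3 mice in each of these 4 groups. No group had resiquimod without ovalbumin, no vehicle injection is listed for the other groups, and the labels do not give the C57BL/6 substrain. Samples are labelled as biological replicates, and each is taken here as 1 mouse.

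Resiquimod, also called R-848 or S-28463, activates Toll-like receptor 7, an endosomal sensor of single-stranded RNA that signals through MyD88 to type I interferon and inflammatory cytokine genes. Interferon and cytokines made by dendritic cells and macrophages are known to activate natural killer (NK) cells and CD8 T cells, which kill with granzymes and perforin. A/J is an inbred strain known for airway hyperresponsiveness and for a loss-of-function allele of the complement C5 gene Hc, and C57BL/6 is the usual reference strain of mouse genetics.

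Expression values are log2 values made with RMA, and a strain difference is A/J minus C57BL/6 on that scale, given ± its standard error with n = 3 mice per strain. A gene is called where limma's moderated test over all 18 arrays gave a Benjamini-Hochberg adjusted p under 0.05 over all probe sets. The gene lists counted below were chosen with earlier results of these data known. A list count beside the share of all genes is therefore a description and not an independent test. In whole lung, fewer cells of a type and less RNA per cell cannot be told apart, and this holds for each difference below. The 25th percentile of all values was 3.33, so a gene near that level is among the weakest signals, and a difference from it understates the change. A short probe can also bind the transcript of one strain less well than that of the other, which was not tested.

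The labels and the arrays were checked before the comparison. Surfactant and alveolar epithelium markers averaged 11.36 to 11.44 in the A/J resiquimod lungs and 11.19 to 11.30 in the C57BL/6 resiquimod lungs, so both groups read as lung. Hc was at 8.77, 8.67 and 9.06 in A/J lungs, against 10.50, 10.40 and 10.46 in C57BL/6 lungs, a difference of -1.62 ± 0.08 that was -1.79 after PBS and -1.80 after ovalbumin. A set of 11 liver genes, among them albumin and fibrinogen, was looked at after the values were seen, and averaged 8.95 in A/J resiquimod mouse 3 against 3.63 to 3.80 in the other 5 resiquimod lungs. A/J ovalbumin mouse 1 also stood apart at 6.87, and every test against ovalbumin uses that array. Hpx is the plasma heme carrier made by the liver. It was at 11.2 in A/J resiquimod mouse 3 against 4.24 and 4.52 in the other A/J resiquimod lungs. Squamous epithelium genes averaged 6.48 in A/J resiquimod mouse 1 and 7.04 in C57BL/6 resiquimod mouse 2, against 3.73 to 4.06 in the other 4, so each strain has 1 such array. Skeletal muscle genes were high in the same 2 lungs, at 7.75 in the A/J lung and 8.66 in the C57BL/6 lung. Arrays of a group correlated with each other at Pearson r of 0.987 or more over the probe sets, which are not independent.

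In resiquimod-treated lungs 6320 probe sets differed between the strains (14% of those tested), 2950 higher (6.55%) and 3370 lower (7.48%) in A/J. By gene, 2994 of 18193 were called (16.5%), of which 1372 were higher in A/J (7.54%) and 1622 lower (8.92%). A difference of at least 2-fold was found for 136 higher and 194 lower genes. The median difference over all genes was 0.01. In lungs of the PBS groups 9.01% of genes differed between strains (4.46% higher and 4.56% lower in A/J), and in those of the ovalbumin groups 9.27% (4.29% and 4.98%). These contrasts share no array with the resiquimod contrast, and share with it 1 estimate of the spread. Of the 1372 genes higher in A/J after resiquimod, 485 were also higher after PBS (35.4% of the 1372 and 59.8% of the PBS list) and 437 also after ovalbumin (31.9%, and 56.0% of the ovalbumin list), while 797 (58.1%) were called in neither. Of the 1622 lower genes, 591 were also lower after PBS (36.4%, and 71.3% of the PBS list), 574 after ovalbumin (35.4%, and 63.4% of that list), and 925 (57%) in neither. A call in 1 contrast and not in another does not show that they differ, and that difference was tested separately. The strain difference after resiquimod differed from that after PBS for 41 genes upward (0.225%) and 130 downward (0.715%), together 0.940% of genes, and from that after ovalbumin for 65 upward (0.357%) and 160 downward (0.879%), together 1.24%. Both tests were passed by 93 genes, 15 upward and 78 downward. The number of such changes depended on few arrays: without the 8 arrays of the series with squamous transcripts, in a fit with fewer samples, 5 genes changed upward and 11 downward against PBS, and 0 and 5 against ovalbumin. Without A/J ovalbumin mouse 1, which carried liver transcripts, 18 genes changed upward and 83 downward against ovalbumin. Without C57BL/6 resiquimod mouse 3 the genes changed were 20 upward and 67 downward against PBS, and 21 and 62 against ovalbumin. Without the 8 arrays with squamous transcripts, 10 of 32 changes with treatment recomputed for genes named by their size still passed. They were those of Klra7, Klra8 and Slc13a3 against both treatments and those of Lox, Ankrd63, Gzmk and Mfap4 against PBS. The test against PBS also rests on C57BL/6 PBS mice that stand apart in Nnt, a mitochondrial transhydrogenase with a known deletion in the C57BL/6J substrain. Nnt averaged 8.34 in C57BL/6 lungs after resiquimod, 8.40 after ovalbumin and 7.07 after PBS.

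**Figure D1:**
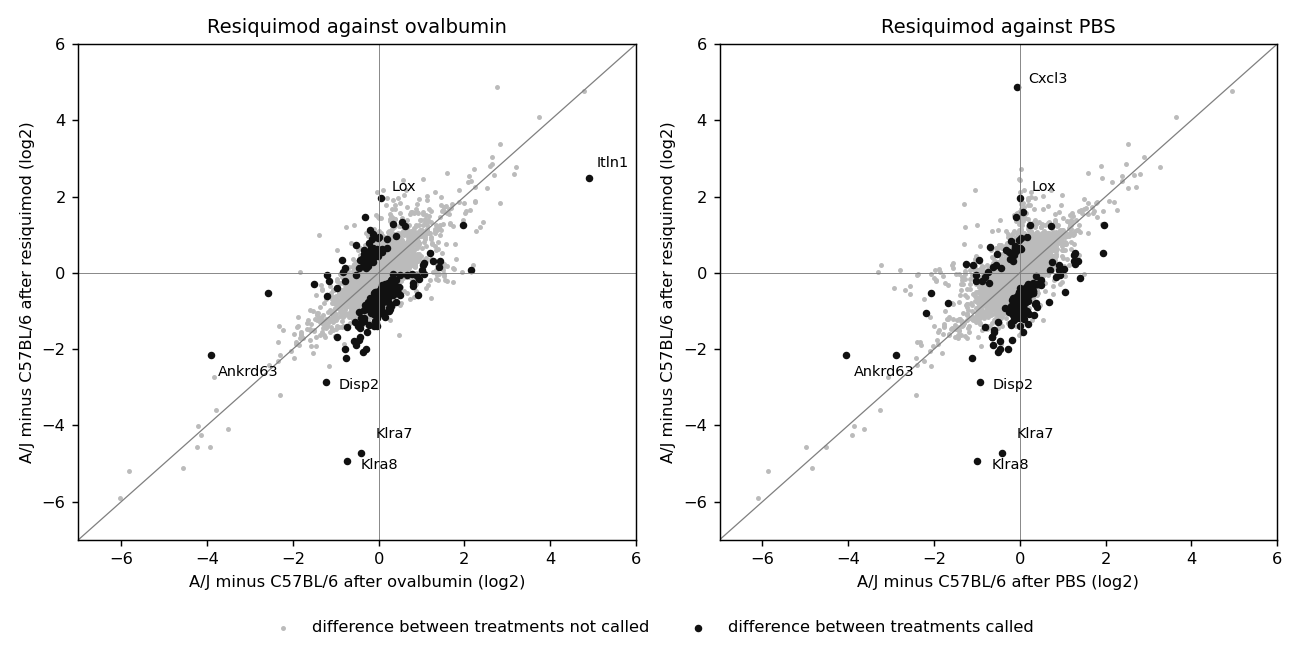
Each point is 1 gene, with A/J minus C57BL/6 (log2) after resiquimod on the vertical axis and the same difference after ovalbumin (left) or PBS (right) on the horizontal axis. Black points passed the test of the difference between treatments, and the line marks equal differences. Most genes with large differences lie near the line, while Klra7 and Klra8 lie far below it at -4.72 and -4.95.

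The largest strain differences mostly recurred in all 3 treatments. Among the 15 largest differences in each direction, 13 of those above 0 and all 15 of those below 0 were called the same way after PBS and after ovalbumin. Rpgrip1, a scaffold protein of photoreceptor cilia, was at 4.90, 4.41 and 4.43 in A/J lungs against 10.48, 10.54 and 10.44 in C57BL/6 lungs, a difference of -5.91 ± 0.14. It was -6.10 after PBS and -6.02 after ovalbumin, and the 3 other probe sets of Rpgrip1 were not called. Sox11, a transcription factor of developing tissues, was at 4.10, 3.84 and 3.61 in A/J lungs against 8.68, 8.24 and 8.36 in C57BL/6 lungs (-4.58 ± 0.17), and all 6 of its probe sets were lower in A/J. Ang, a secreted ribonuclease with close paralogs on the array, differed by -5.21 ± 0.22, and its 3 probe sets were all lower, between -0.52 and -5.21. Bst1, an ectoenzyme that makes cyclic ADP-ribose, differed by -3.20 ± 0.21, with a similar -3.02 on its other probe set.

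Several of these genes stand beside each other in the genome. Positions here are ranks among protein-coding genes of RefSeq GRCm38.p6, in which adjacent genes are 1 apart. Trim12a (-4.25 ± 0.11) and Trim34a (-4.01 ± 0.11), members of a family of antiviral ubiquitin ligases, are 2 apart, and Trim30d of the same family differed by -3.59 ± 0.16. The other probe set of Trim34a went the opposite way (1.37), so its direction depends on the probe set. In the Ifi200 family, interferon-inducible DNA sensors, Ifi204 stands next to Mndal and 4 from Ifi202b. Ifi204 was at 7.15, 7.40 and 7.15 in A/J lungs against 4.27, 4.40 and 4.48 in C57BL/6 lungs (2.85 ± 0.13), and Ifi202b differed by 3.37 ± 0.18. Mndal was at 5.24, 4.06 and 4.15 in A/J lungs against 8.51, 8.62 and 8.57 in C57BL/6 lungs (-4.08 ± 0.23). The family has near-identical copies, so a probe set may read more than the gene it names. Of the 8 measured members of the family 2 were higher and 5 lower in A/J, beside 7.54% and 8.92% of all genes. Gbp2b, an interferon-inducible GTPase, was higher in A/J by 4.77 ± 0.21, and its neighbour Gbp2 was lower by -1.13 ± 0.12. Gbp2b differed about as much after PBS (4.95) and ovalbumin (4.79). Myh7, a cardiac myosin heavy chain, was higher by 2.41 ± 0.21 and its neighbour Myh6 by 1.02 ± 0.24. Of 13 cardiac muscle genes 5 were higher and 1 lower in A/J, beside the same shares of all genes. Pik3ap1, an adaptor of PI3 kinase in B cells, differed by 2.77 ± 0.18 while its other probe set gave -0.58.

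Mid1, a microtubule-associated ubiquitin ligase, was at 4.78, 4.46 and 4.40 in A/J lungs against 8.45, 8.55 and 4.81 in C57BL/6 lungs. C57BL/6 mouse 3 lay just above the A/J lungs, and the difference of -2.72 ± 0.64 rests on the other 2 C57BL/6 mice and was -2.20 without the arrays with squamous transcripts, where it did not pass. The 6 C57BL/6 lungs of the PBS and ovalbumin groups were between 6.91 and 8.65 for Mid1.

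**Figure D2:**
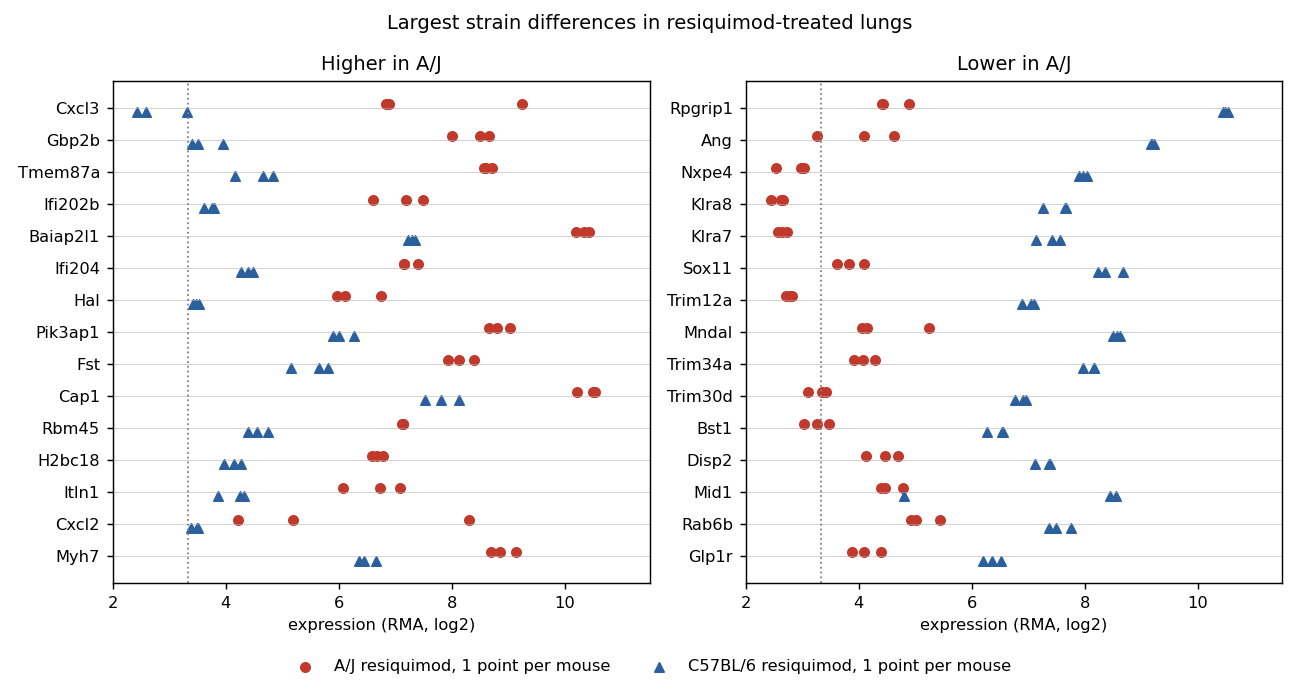
Each row is 1 of the 15 genes with the largest difference in each direction, with the RMA log2 value of every mouse on the horizontal axis (red circles A/J, blue triangles C57BL/6, all after resiquimod; dotted line at 3.33). The strains do not overlap in these genes, and Mid1 shows 1 C57BL/6 mouse at 4.81 beside the A/J mice.

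Genes of DNA replication and mitosis were lower in A/J lungs after resiquimod. Of 38 measured cell cycle genes, 28 were lower and 0 higher, against 8.92% of all genes lower, and all 38 differences were below 0. Their median difference was -0.61 after resiquimod, -0.11 after PBS and -0.06 after ovalbumin, beside 0.01 over all genes after resiquimod. The list mean ran from 5.90 to 6.16 in A/J lungs and from 6.60 to 6.64 in C57BL/6 lungs. After PBS 3 of the 38 genes were lower and after ovalbumin 3. Without A/J resiquimod mouse 3, which carried the liver transcripts, 22 were lower, and without the arrays with squamous transcripts 29 were.

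The replicative helicase was lower as a whole. Mcm2 to Mcm7 encode the 6 subunits of the ring-shaped helicase that unwinds DNA ahead of the replication fork, and 6 of 6 were lower in A/J. Mcm5 was at 7.43, 7.35 and 7.05 in A/J lungs against 8.22, 8.17 and 8.41 in C57BL/6 lungs, a difference of -0.99 ± 0.12 (limma adjusted p = 2.3e-05). Mcm2 was at 6.79, 6.76 and 6.62 in A/J lungs against 7.78, 7.65 and 7.57 in C57BL/6 lungs (-0.94 ± 0.09), and Mcm3 was at 6.61, 6.60 and 6.33 against 7.36, 7.30 and 7.45 (-0.86 ± 0.10). The strains did not overlap in these genes. For Mcm5 the strain difference was 0.11 after PBS and 0.00 after ovalbumin, and the difference after resiquimod departed from both (limma adjusted p = 0.00576 against PBS and 0.0135 against ovalbumin). The same 2 tests were passed by 5 of the 6 subunits, Mcm2, Mcm3, Mcm4, Mcm5 and Mcm6. Mcm7 passed the test against PBS alone (adjusted p = 0.049, against 0.091 for ovalbumin). The number of genes passing these tests depended on few arrays. Without C57BL/6 resiquimod mouse 3 the downward changes fell from 130 to 67 genes against PBS and from 160 to 62 against ovalbumin. Whether the Mcm subunits and other cell cycle genes still pass these tests when arrays are left out was not tested.

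The promoters of Mcm5, Mcm3 and Mcm6 are shown because these subunits moved together and share a motif of the E2F family, transcription factors that drive genes of S phase. Sequences run from 250 bases before to 50 after the start in RefSeq GRCm38.p6, 5′ to 3′ on the gene's strand, with each match to TTTNNCGC on either strand in capitals. Mcm5 and Mcm3 hold 2 matches each and Mcm6 holds 3, and neighbouring matches on opposite strands may overlap.
Mcm5, GRCm38.p6 chr8:75109259-75109558, plus strand: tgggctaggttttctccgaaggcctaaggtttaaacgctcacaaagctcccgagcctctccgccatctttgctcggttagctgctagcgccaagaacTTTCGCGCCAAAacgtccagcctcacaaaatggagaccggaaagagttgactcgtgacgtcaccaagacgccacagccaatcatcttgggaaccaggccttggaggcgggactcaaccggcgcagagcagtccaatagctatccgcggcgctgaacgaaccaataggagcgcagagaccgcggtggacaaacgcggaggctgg
Mcm3, GRCm38.p6 chr1:20820263-20820562, minus strand: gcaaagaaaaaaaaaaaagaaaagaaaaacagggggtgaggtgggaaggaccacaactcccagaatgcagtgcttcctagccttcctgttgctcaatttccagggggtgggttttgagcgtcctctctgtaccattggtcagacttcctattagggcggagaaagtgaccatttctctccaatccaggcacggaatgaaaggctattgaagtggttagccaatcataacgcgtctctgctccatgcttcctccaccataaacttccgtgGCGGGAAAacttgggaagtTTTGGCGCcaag
Mcm6, GRCm38.p6 chr1:128359656-128359955, minus strand: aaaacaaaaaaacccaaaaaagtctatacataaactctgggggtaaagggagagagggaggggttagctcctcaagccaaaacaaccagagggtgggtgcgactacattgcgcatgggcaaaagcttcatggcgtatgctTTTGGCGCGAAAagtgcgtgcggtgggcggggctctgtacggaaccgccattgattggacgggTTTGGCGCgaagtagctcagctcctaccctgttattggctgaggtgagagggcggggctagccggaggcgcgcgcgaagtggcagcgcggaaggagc
The motif stood in 4 of the 5 Mcm2 to Mcm7 promoters with an entry (80%). It stood in 6 of 22 promoters of the lower cell cycle genes (27.3%), which include the 5 Mcm promoters, so 4 of these 6 are Mcm promoters. It stood in 1 of 9 promoters of cell cycle genes not called lower (11.1%), against 5.93% of the 27025 genes with an entry. A match is a description of letters and not evidence of binding.

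Other replication genes behaved alike. Pcna, the sliding clamp of DNA polymerases, was at 10.14, 9.97 and 9.98 in A/J lungs against 10.55, 10.47 and 10.59 in C57BL/6 lungs (-0.51 ± 0.07), and Tk1, a thymidine kinase of S phase, differed by -0.73 ± 0.13. Both passed the tests against PBS and ovalbumin, which brought the cell cycle genes that did to 7. Genes of mitosis were lower too: Kif23, a kinesin of the cleavage furrow, was at 6.06, 5.79 and 5.94 in A/J lungs against 7.41, 7.55 and 7.26 in C57BL/6 lungs (-1.47 ± 0.15). Kif23 was already lower in A/J after PBS (-0.77) and ovalbumin (-1.08), and neither test of a change with treatment was passed. Nuf2, a kinetochore protein, differed by -1.22 ± 0.13, Tpx2, a spindle assembly factor, by -1.01 ± 0.16, and Top2a, the topoisomerase that untangles chromosomes, by -0.74 ± 0.16. Mki67, the proliferation marker, was at 8.45, 8.06 and 8.04 in A/J lungs and 8.54, 8.54 and 8.43 in C57BL/6 lungs, a difference of -0.32 ± 0.13 that did not pass (adjusted p = 0.13).

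**Figure D3:**
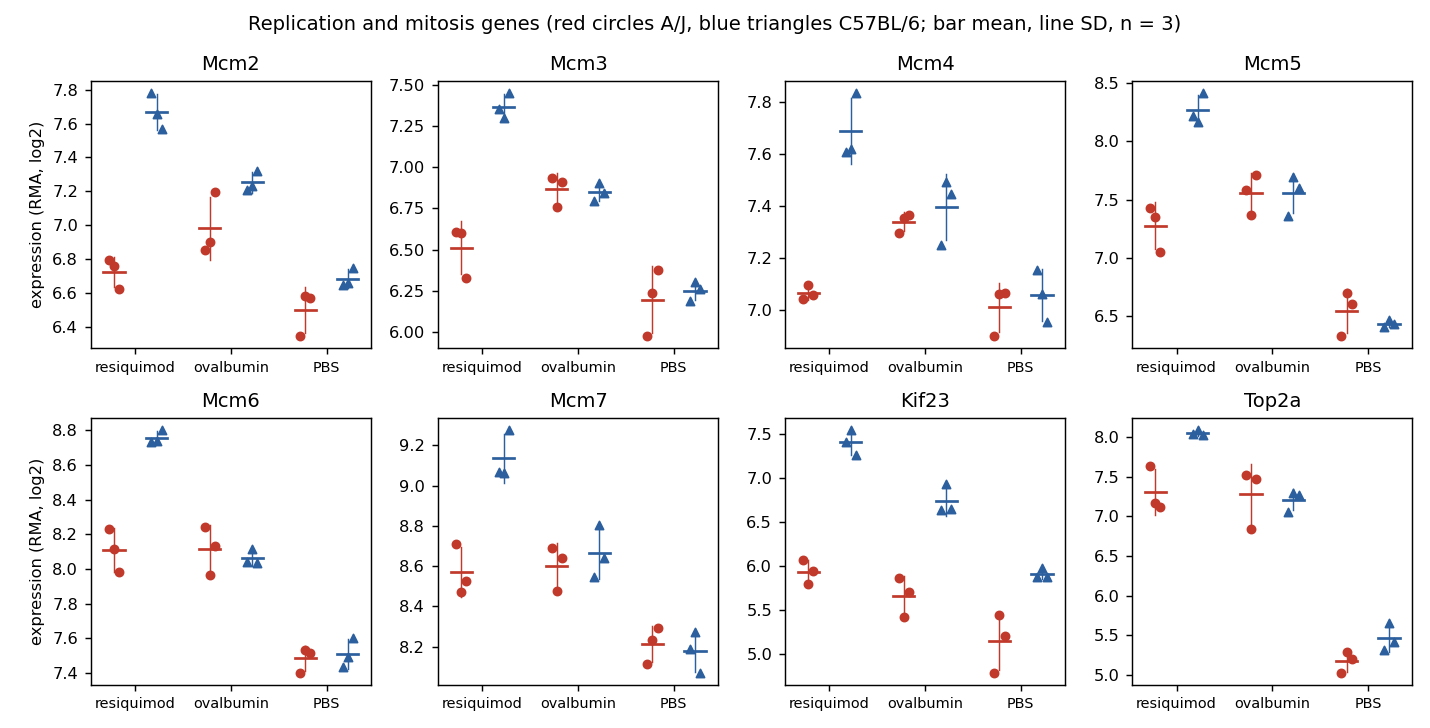
RMA log2 values of 8 replication and mitosis genes in each mouse, by treatment, with A/J (red circles) left of C57BL/6 (blue triangles), the mean as a bar and the SD as a line (n = 3). For Mcm5 the A/J resiquimod mice sit between 7.05 and 7.43, below the C57BL/6 resiquimod mice at 8.17 to 8.41, while the strains overlap after ovalbumin and PBS.

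A part of the NK receptor and cytotoxic genes was lower in A/J. Of 21 measured NK receptor genes 10 were lower and 0 higher in A/J, and of 20 cytotoxic lymphocyte genes 12 were lower and 0 higher, against 8.92% of all genes lower. The median difference was -0.22 for the NK receptors and -0.76 for the cytotoxic genes after resiquimod, beside -0.07 and -0.03 after PBS and -0.09 for both lists after ovalbumin. After PBS 6 NK receptors were already lower, and 1 cytotoxic gene was lower and 1 higher, beside 4.56% of all genes lower. After ovalbumin 5 NK receptors and 4 cytotoxic genes were lower, beside 4.98% of all genes. The cytotoxic list averaged 5.29 to 5.75 in A/J lungs and 6.06 to 6.38 in C57BL/6 lungs. Without A/J resiquimod mouse 3 the counts were 10 and 11.

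Klra8 encodes Ly49H, an activating NK receptor that recognizes a cytomegalovirus protein in C57BL/6 mice, and Ly49 gene content is known to differ between inbred strains. Klra8 was at 2.63, 2.45 and 2.66 in A/J lungs against 7.65, 7.26 and 7.66 in C57BL/6 lungs, a difference of -4.95 ± 0.13 (adjusted p = 1.6e-13). The A/J values lie under 3.33 in all 3 treatments, with means of 2.58 after PBS and 2.48 after ovalbumin, while C57BL/6 lungs averaged 3.58 after PBS and 3.23 after ovalbumin. The difference was therefore -1.0 after PBS and -0.75 after ovalbumin. Klra7 differed by -4.72 ± 0.10, but its second probe set gave 0.00, and both Klra8 and the called Klra7 probe set are of a kind that can bind several family members, so which Ly49 gene was read is uncertain.

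Some receptors outside the Ly49 family were lower as well. Klrk1, the activating receptor NKG2D, was at 5.65, 5.61 and 5.0 in A/J lungs against 7.07, 7.39 and 7.47 in C57BL/6 lungs (-1.89 ± 0.15), beside -0.62 after PBS and -0.53 after ovalbumin. Klre1, a lectin-like NK receptor, differed by -2.06 ± 0.14, beside -0.51 and -0.36. Both passed the tests against PBS and ovalbumin. Klrd1, the CD94 partner of NKG2 receptors, differed by -1.71 ± 0.16 but by about as much after PBS (-1.23) and ovalbumin (-1.77). Ncr1, the NKp46 receptor found on nearly all NK cells, was at 6.79, 6.40 and 6.24 in A/J lungs and 6.06, 5.98 and 6.31 in C57BL/6 lungs, a difference of 0.36 ± 0.14 that did not pass (adjusted p = 0.11).

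Gzma, a serine protease of killer cell granules, was among the brightest of these genes, at 10.19, 10.22 and 9.92 in A/J lungs against 11.76, 11.63 and 11.72 in C57BL/6 lungs (-1.59 ± 0.13). The strain difference was of like size after PBS (-1.64) and ovalbumin (-1.96). Gzmb, the apoptosis-inducing granzyme, was at 8.55, 8.71 and 8.24 in A/J lungs against 9.62, 9.36 and 9.47 in C57BL/6 lungs (-0.98 ± 0.18). Gzmk and Cd8b1, the beta chain of CD8, were near the floor in A/J: Gzmk was at 3.40, 3.06 and 3.41 in A/J lungs against 5.25, 4.13 and 5.16 in C57BL/6 lungs (-1.56 ± 0.20), and Cd8b1 differed by -1.17 ± 0.15. Both passed the tests against PBS and ovalbumin. The transcription factors Tbx21 (-0.87 ± 0.16) and Eomes (-0.73 ± 0.15), which direct the cytotoxic program, were lower too, and so was the chemokine Ccl5 (-1.12 ± 0.15). Prf1, the pore-forming perforin, was at 7.42, 7.67 and 7.11 in A/J lungs and 8.0, 7.55 and 8.10 in C57BL/6 lungs and did not pass (-0.48 ± 0.20), nor did Ifng (-0.41 ± 0.28) or Cd8a (-0.31 ± 0.13). Of 15 T cell genes 3 were lower and 0 higher, beside 8.92% and 7.54% of all genes. Among the 3 was Cd3d, a chain of the T cell receptor complex (-0.79 ± 0.15).

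**Figure D4:**
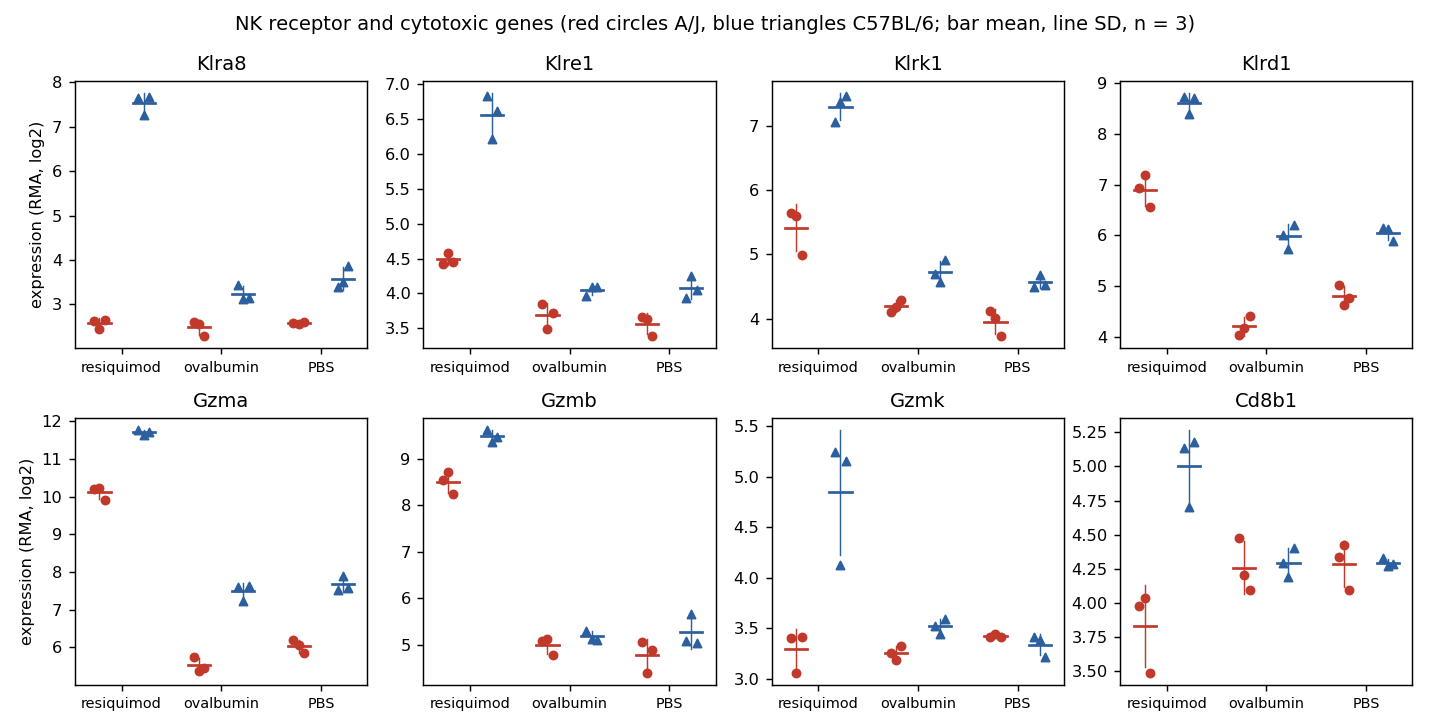
RMA log2 values of 8 NK receptor and cytotoxic genes in each mouse, by treatment, with A/J (red circles) left of C57BL/6 (blue triangles), the mean as a bar and the SD as a line (n = 3). Klra8 in C57BL/6 stands at 7.26 to 7.66 after resiquimod and stays under 4 after ovalbumin and PBS, while A/J stays under 3 in all 3 treatments.

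Tlr7 itself, the receptor of resiquimod, was at 5.76, 5.72 and 5.59 in A/J lungs against 6.12, 6.36 and 5.85 in C57BL/6 lungs. The strains did not overlap, and the difference was -0.42 ± 0.10 (adjusted p = 0.011), beside 0.13 after PBS and -0.01 after ovalbumin. The difference did not depart from either by test (adjusted p = 0.12 and 0.23), and the call was lost without A/J resiquimod mouse 3 (-0.37), without C57BL/6 resiquimod mouse 2 (-0.30) and without the arrays with squamous transcripts (-0.33). Among 30 Toll-like receptor and signalling genes 4 were higher and 5 lower in A/J, beside 7.54% higher and 8.92% lower among all genes. Tlr4, the endotoxin receptor, was higher on 1 probe set (0.66 ± 0.11) and by as much after PBS (0.69) and ovalbumin (0.73). Its other probe sets gave 0.03, 0.17 and -0.05 and were not called. Irf7, the transcription factor that carries the Tlr7 signal to interferon genes, was lower (-0.59 ± 0.12). Its difference was -0.26 after PBS and -0.69 after ovalbumin, so it was not larger after resiquimod than after ovalbumin alone.

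Type I interferon-stimulated genes were lower where they differed, with 13 of 30 lower and 0 higher in A/J, beside 8.92% of all genes lower. Their median was -0.30, with list means of 7.04 to 7.20 in A/J lungs and 7.47 to 7.52 in C57BL/6 lungs. After PBS 2 of them were lower, beside 4.56% of all genes, and after ovalbumin 9, beside 4.98%. The count was 10 without A/J resiquimod mouse 3 and 8 without the arrays with squamous transcripts. Rsad2, the antiviral enzyme viperin, was at 6.34, 6.22 and 6.02 in A/J lungs against 7.10, 7.29 and 7.49 in C57BL/6 lungs (-1.10 ± 0.18), and departed from the PBS difference of 0.32 (adjusted p = 0.015) but not from the ovalbumin difference of -0.20 (adjusted p = 0.12). Cmpk2, a mitochondrial nucleotide kinase, differed by -0.82 ± 0.09, and Usp18, which removes ISG15 and damps interferon signalling, by -0.64 ± 0.10. Not all members moved: Ifit1 (-0.22 ± 0.15) and Mx1 (-0.17 ± 0.13) did not pass.

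The Rsad2 promoter is shown for its match to the interferon-stimulated response element, which interferon-activated STAT and IRF factors bind. The match, on the opposite strand, is in capitals, and the window is the same as above.
Rsad2, GRCm38.p6 chr12:26456403-26456702, minus strand: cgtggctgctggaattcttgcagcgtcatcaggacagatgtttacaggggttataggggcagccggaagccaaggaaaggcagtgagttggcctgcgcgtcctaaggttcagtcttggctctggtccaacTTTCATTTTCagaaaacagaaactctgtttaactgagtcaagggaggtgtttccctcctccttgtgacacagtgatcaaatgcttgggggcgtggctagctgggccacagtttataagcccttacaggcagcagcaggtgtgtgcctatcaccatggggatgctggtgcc
The motif stood in 4 of 9 promoters of the lower interferon-stimulated genes with an entry (44.4%), in 7 of 12 of those not called lower (58.3%) and in 3.99% of all genes with an entry.

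Of 13 MHC class II genes, which present antigen to CD4 T cells, 6 were lower and 1 higher in A/J, with a median of -0.38. Of 16 class I and processing genes 7 were lower and 0 higher, beside 8.92% lower and 7.54% higher among all genes. H2-Eb1, the beta chain of the class II molecule I-E, was at 9.84, 9.54 and 9.25 in A/J lungs against 10.62, 10.81 and 10.61 in C57BL/6 lungs (-1.13 ± 0.12). H2-Aa (-0.65 ± 0.12) and H2-Ab1 (-0.68 ± 0.13), the chains of I-A, and H2-DMa (-0.82 ± 0.12), which loads peptide, were lower too, with A/J mouse 3 the lowest in each. H2-Ea was the exception, higher in A/J (0.63 ± 0.18), and C57BL/6 is known to carry a deletion in it. Its call was lost without the arrays with squamous transcripts (0.55) and without 4 of the 6 resiquimod mice in turn (0.49 the lowest). Tap1, the peptide transporter of class I, was at 6.80, 7.28 and 6.30 in A/J lungs against 7.61, 7.73 and 7.78 in C57BL/6 lungs (-0.91 ± 0.18). The class I count was 2 without the arrays with squamous transcripts, where Tap1 differed by -0.90 and did not pass in the smaller fit. Of 18 B cell genes 3 were lower and 1 higher, beside 8.92% and 7.54% of all genes. They were led by Fcer2a, the low-affinity IgE receptor (-1.0 ± 0.14), which passed the tests against PBS and ovalbumin.

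The neutrophil-attracting chemokines Cxcl3 and Cxcl2 were higher in A/J. Cxcl3 was at 6.88, 9.25 and 6.83 in A/J lungs against 2.59, 2.44 and 3.32 in C57BL/6 lungs, a difference of 4.88 ± 0.45 (adjusted p = 9.3e-07), beside -0.06 after PBS and 2.77 after ovalbumin. It departed from the PBS difference (adjusted p = 0.00092) and not from the ovalbumin one (adjusted p = 0.14). Cxcl2 stands 3 positions from Cxcl3 and was at 5.20, 8.30 and 4.22 in A/J lungs against 3.49, 3.38 and 3.50 in C57BL/6 lungs (2.45 ± 0.63). In both genes A/J mouse 2 was the highest by more than 2 log2 units, and Clec4e, a pattern receptor of myeloid cells, was highest in the same mouse at 8.09. Without A/J mouse 2 the Cxcl2 difference was 1.25 and still passed, and that of Clec4e was 0.51 and did not. Without the arrays with squamous transcripts the differences were 2.76 for Cxcl2 and 1.19 for Clec4e, and neither passed in the smaller fit. Cxcl1 (0.31 ± 0.10) and Cxcl5 (0.20 ± 0.13), of the same family, did not pass. Ppbp, which stands 2 positions from Cxcl3, went the other way and was lower in A/J (-1.15). Among 24 chemokines 6 were higher and 2 lower in A/J, beside 7.54% and 8.92% of all genes. Ccl11, the eosinophil attractant eotaxin, was at 6.72, 5.63 and 6.15 in A/J lungs against 4.73, 5.10 and 5.09 in C57BL/6 lungs (1.19 ± 0.22), beside 1.40 after ovalbumin. The neutrophil list was split, with 3 of 18 higher and 3 lower, beside the same shares of all genes. Among the higher was Fpr2, a formyl peptide receptor (1.23 ± 0.19), beside 1.18 after PBS and 1.72 after ovalbumin. Among the lower were Cxcr2, the receptor of Cxcl2 and Cxcl3 (-0.99 ± 0.15), and Ngp, a granule protein (-1.23 ± 0.31). Cxcr2 differed by -0.39 after PBS and -0.28 after ovalbumin, and Ngp by 0.54 and 0.27. Ngp was -1.02 and did not pass without the arrays with squamous transcripts.

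Of 25 macrophage genes 3 were higher and 6 lower in A/J, beside 7.54% and 8.92% of all genes. Marco, a scavenger receptor of alveolar macrophages, was at 9.62, 9.31 and 9.38 in A/J lungs against 7.82, 7.63 and 7.59 in C57BL/6 lungs (1.76 ± 0.24). Its difference was 0.67 after PBS and 1.57 after ovalbumin. Cd163, a hemoglobin scavenger receptor, was higher by 1.09 ± 0.24, beside -0.14 after PBS and 0.58 after ovalbumin. Fcgr4, an activating IgG receptor of monocytes, was at 7.49, 7.65 and 7.39 in A/J lungs against 8.84, 8.78 and 8.89 in C57BL/6 lungs (-1.32 ± 0.14). Fcgr2b, the inhibitory IgG receptor, was lower by -0.94 ± 0.13 and Cx3cr1, the fractalkine receptor, by -0.93 ± 0.13. Of 17 dendritic cell genes 4 were lower and 0 higher, beside 8.92% and 7.54% of all genes. They were led by Fscn1, the actin bundler of mature dendritic cells (-1.04 ± 0.12).

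The type 2 cytokines Il13, Il4 and Il5 had weak signals in both strains and did not pass. Il13 was at 3.81, 3.80 and 3.68 in A/J lungs and 3.44, 3.70 and 3.63 in C57BL/6 lungs, and Il4 differed by -0.11 ± 0.11 and Il5 by 0.06 ± 0.09. Of 22 mucus and goblet cell genes 7 were higher and 3 lower in A/J, beside 7.54% and 8.92% of all genes. Slc26a4, the anion exchanger pendrin, was at 7.46, 7.22 and 7.15 in A/J lungs against 5.33, 5.53 and 5.64 in C57BL/6 lungs (1.77 ± 0.21). Its difference was 0.95 after PBS and 1.44 after ovalbumin. Itln1, a secreted lectin of goblet cells, was higher by 2.49 ± 0.20, less than the 4.90 after ovalbumin (adjusted p = 0.00074 for that change). Muc4, a membrane mucin, was lower on 1 probe set (-1.25 ± 0.20), which differed by -1.46 after PBS and -1.65 after ovalbumin. Its other probe sets gave 0.28 and -0.04 and were not called. Muc5ac, the gel-forming airway mucin, was at 6.27, 5.34 and 5.32 in A/J lungs and 5.46, 5.33 and 6.20 in C57BL/6 lungs, with overlap. Tff1, an epithelial peptide, was at 11.60 in A/J mouse 1, the A/J lung with squamous transcripts, and between 6.73 and 7.36 in the other 5, so its difference of 1.79 ± 0.72 rests on 1 mouse and did not pass.

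Lox, the lysyl oxidase that crosslinks collagen and elastin, was at 10.31, 10.43 and 10.91 in A/J lungs against 8.75, 8.42 and 8.59 in C57BL/6 lungs (1.96 ± 0.15, adjusted p = 1.2e-07). The strain difference was 0.01 after PBS and 0.05 after ovalbumin, and both tests of a change were passed (adjusted p = 0.0002 and 0.00041). Its probe sets gave 1.96, 1.98 and 0.16. Eln, the elastin that Lox crosslinks, was higher too (0.71 ± 0.15), while the collagens were lower: Col1a1 by -0.91 ± 0.15, Col1a2 by -0.80 ± 0.12 and Col3a1 by -0.75 ± 0.15, beside -0.76, -0.43 and -0.64 after PBS and -0.16, -0.05 and 0.00 after ovalbumin. Of 22 fibroblast and matrix genes 10 were lower and 4 higher after resiquimod, beside 8.92% and 7.54% of all genes. After PBS 8 were lower and 2 higher, beside 4.56% and 4.46%. Galnt15, a glycosyltransferase of mucin-type O-glycans, was higher by 1.47 ± 0.13, beside -0.10 after PBS and -0.32 after ovalbumin. Emcn, an endothelial sialomucin, was at 7.77, 7.71 and 7.52 in A/J lungs against 8.96, 8.84 and 9.17 in C57BL/6 lungs (-1.32 ± 0.10), beside -0.20 and -0.07. It was the 1 called gene of 20 endothelial markers, beside 16.5% of all genes called.

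Slc13a3, a dicarboxylate transporter, was at 4.51, 4.59 and 4.40 in A/J lungs against 6.60, 6.46 and 6.44 in C57BL/6 lungs (-2.00 ± 0.11), beside -0.29 after PBS and after ovalbumin. Disp2, a Dispatched family membrane protein, was lower by -2.86 ± 0.17, beside -0.94 and -1.22. Ankrd63, which stands 5 positions from Disp2, went the other way with treatment: its difference was -2.15 ± 0.14, beside -4.05 and -3.91, and C57BL/6 lungs averaged 5.75 after resiquimod, 7.53 after PBS and 7.36 after ovalbumin.

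Of 25 circadian and glucocorticoid genes 10 were higher and 2 lower in A/J, beside 7.54% and 8.92% of all genes, and 13 were not called. Zbtb16, a transcription factor induced by glucocorticoids, was at 8.29, 8.68 and 10.34 in A/J lungs against 7.68, 7.27 and 7.05 in C57BL/6 lungs (1.77 ± 0.41), and Klf9 was higher by 0.88 ± 0.15 and Pdk4, which restrains pyruvate oxidation, by 2.16 ± 0.52. A/J mouse 3 was the highest in these 3 genes, and the liver transcripts stand in the same lung. Without it 5 of the 25 were higher and Pdk4 did not pass, and the part of the liver transcripts in the result was not tested. Of 26 club cell and xenobiotic genes 7 were higher and 2 lower, beside the same shares of all genes, led by Cyp2b10 (0.82 ± 0.11), a cytochrome P450. Of 17 alveolar genes 3 were higher and 0 lower, beside the same shares of all genes. After PBS 4 of the 17 were higher and 1 lower, and after ovalbumin 1 was higher and 2 lower.

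**Figure D5:**
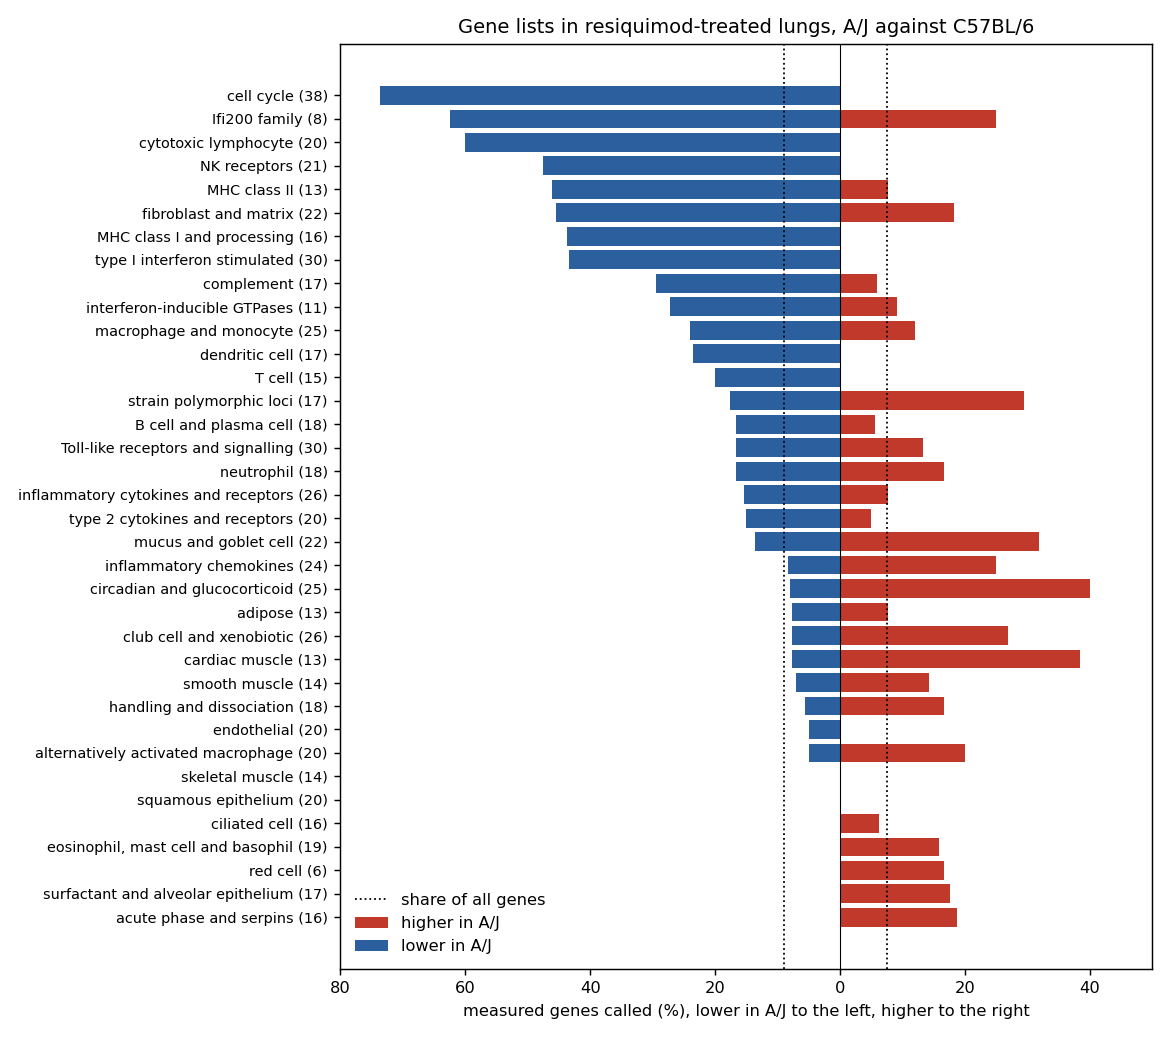
Share of the measured genes of each list (number in brackets) that was called higher (red, right) or lower (blue, left) in A/J against C57BL/6 after resiquimod, with the share of all genes (8.92% lower, 7.54% higher) as dotted lines. Cell cycle genes reach 28 of 38 lower and cytotoxic genes 12 of 20 lower, while circadian and glucocorticoid, cardiac and mucus genes lead on the higher side. The lists were chosen with earlier results of these data known.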

How the data were processed

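RNA from 18 whole-lung samples was hybridised, 1 array for each, and samples are treated as separate mice. The deposited table holds log2 values that the authors made with RMA, per the submitters' processing notes, which name RMA and the affy package and no versions. RMA normalizes quantiles between arrays and pulls array medians together (4.77 to 4.80 here). The members and the 36 gene lists were chosen with earlier results of these data known. 64 control probe sets were left out of 45101, and 45037 were tested. Of these, 34945 name 1 gene, 932 several and 9160 none. Each gene is read from its brightest probe set over the 18 arrays, among those naming it alone (18193 genes). A model of 6 group means, with 12 residual degrees of freedom, was fitted by limma 3.58.1 (R 4.3.3), with Benjamini-Hochberg adjustment over all probe sets. Nothing beyond the labels says that samples are separate animals, so p-values cover the spread among samples alone. Named genes are the 15 largest called differences each way without overlap between strains, the 8 largest each way per test of a change with treatment, up to 4 called members per list, and Tlr7, Il13, Il4, Il5, Ccl11, Muc5ac, Ifng, Cxcl10, Hc, Nnt and H2-Ea. Other list members that the text names were chosen after their values were seen. On simulated data of 45037 probe sets with 200 changed, 98.5% of changes of 1 log2 unit were recovered, with 14 false calls. The number of arrays limits the precision. No label says that replicate numbers pair the mice, and same-numbered mice of the 2 resiquimod groups did not all deviate together.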

Additional observations from a re-analysis of the deposited data

Results flagged for a closer look

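For 39 named genes the strain difference after resiquimod differed from that after PBS (28 genes), from that after ovalbumin (29 genes) or from both (18 genes) by the limma test of the change itself. Values are the strain difference, A/J minus C57BL/6, after resiquimod minus the same difference in the other treatment, on the log2 scale.

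Some natural killer receptor and lymphocyte genes passed both tests. Klra7 changed by -4.31 against PBS and by -4.30 against ovalbumin and Klra8 changed by -3.94 against PBS and by -4.20 against ovalbumin. Klre1 changed by -1.55 against PBS and by -1.70 against ovalbumin and Klrk1 changed by -1.27 against PBS and by -1.36 against ovalbumin. Gzmk changed by -1.64 against PBS and by -1.29 against ovalbumin and Cd8b1 changed by -1.17 against PBS and by -1.14 against ovalbumin. S1pr5 changed by -1.58 against PBS and by -1.30 against ovalbumin and Fcer2a changed by -1.18 against PBS and by -1.23 against ovalbumin. All of these were further below 0 after resiquimod. S1pr5 is a sphingosine phosphate receptor of NK cells.

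So did 10 further genes. A2ml1 changed by 1.55 against PBS and by 2.06 against ovalbumin and Ankrd63 changed by 1.90 against PBS and by 1.76 against ovalbumin. Disp2 changed by -1.93 against PBS and by -1.64 against ovalbumin and Emcn changed by -1.12 against PBS and by -1.26 against ovalbumin. Galnt15 changed by 1.57 against PBS and by 1.78 against ovalbumin and Glp1r changed by -1.13 against PBS and by -1.47 against ovalbumin. Lox changed by 1.95 against PBS and by 1.91 against ovalbumin and Mcm5 changed by -1.10 against PBS and by -0.99 against ovalbumin. Myrip changed by 1.30 against PBS and by 1.20 against ovalbumin and Slc13a3 changed by -1.71 against PBS and by -1.71 against ovalbumin. 

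Against ovalbumin alone the values were Cp (0.64), Klf15 (1.31), Rgcc (1.26) and Tubb1 (1.22). Values below 0 were Cd22 (-1.0), Fcgr2b (-1.20), Fcgr4 (-0.90), Fscn1 (-1.08), Guca2a (-2.06), Itln1 (-2.41) and Siglecf (-1.49). Itln1, a goblet cell lectin, had the largest of these. Its strain difference was still above 0 after resiquimod (2.49, against 4.90 after ovalbumin). That of Guca2a was 0.08 after resiquimod, against 2.14 after ovalbumin. Leaving out each mouse in turn, the call was lost for Rgcc in 7 of 18 fits, for Klf15 in 5 and for Siglecf in 3, and that of Myrip against ovalbumin in 6. A/J ovalbumin mouse 1 and A/J resiquimod mouse 3, which carried liver transcripts (6.87 and 8.95), enter each of the values against ovalbumin. The calls of Itln1, Guca2a and Tubb1 were kept in all 18 fits, and so without either mouse. For Cp, Cd22, Fcgr2b, Fcgr4 and Fscn1 the part of these mice in the change was not tested. Cp averaged 10.36 in A/J and 10.03 in C57BL/6 resiquimod lungs on the probe set read here, and its other probe sets were not called after resiquimod.

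Against PBS alone they were Cxcl3 (4.94), Fos (1.38), Ifi213 (1.13), Lcn2 (1.31) and Lrmda (1.51). Values below 0 were Cmpk2 (-0.68), Mfap4 (-1.57), Nnt (-1.52), Nuf2 (-1.08) and Rsad2 (-1.42). Leaving out each mouse in turn, the call was lost for Fos in 9 of 18 fits and that of A2ml1 against PBS in 7. Nnt, the nicotinamide nucleotide transhydrogenase in which the C57BL/6J substrain is known to carry a deletion, averaged 8.34 in C57BL/6 lungs after resiquimod and 8.40 after ovalbumin, against 7.07 after PBS, so the C57BL/6 PBS mice stand apart in this gene and the tests against PBS use them.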

How the results depend on the processing

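The number of strain differences after resiquimod was 6283 probe sets with the replicate block, and the tests of a change gave 290 against PBS and 385 against ovalbumin, so the block moved none of these counts by more than 1.5 times. Deviations of same-numbered A/J and C57BL/6 resiquimod mice correlated at -0.41, -0.37 and 0.15, while those of A/J resiquimod with A/J PBS mice (0.50, 0.29 and 0.16) and with C57BL/6 ovalbumin mice (0.53, 0.30 and 0.19) were all above 0. The resiquimod count was 6474 with a filter on low values, 6221 with median centring and 6442 with cyclic loess. With only the 6 resiquimod arrays 888 genes were higher in A/J. Without the 8 arrays that carry squamous transcripts 4029 probe sets were called (823 genes higher, 1073 lower), 1442 after PBS (278 and 287) and 1347 after ovalbumin (231 and 291). The tests of a change then gave 25 probe sets against PBS (5 and 11 genes) and 6 against ovalbumin (0 and 5), in a fit with fewer samples. With trend and robust moderation they gave 487 (86 and 205) and 730 (164 and 268), and with array weights 69 genes were higher against PBS. Leaving out each mouse in turn gave 4710 to 6350 probe sets after resiquimod (genes 973 to 1382 higher, 1201 to 1624 lower), 2941 to 3922 after PBS (543 to 822, 653 to 854) and 3184 to 4033 after ovalbumin (596 to 803, 671 to 917). The tests of a change ran from 155 to 360 against PBS (20 to 50, 67 to 163), lowest without C57BL/6 resiquimod mouse 3. Against ovalbumin they ran from 138 to 636 (18 to 124, 62 to 233), with the fewest probe sets without C57BL/6 resiquimod mouse 3, the fewest higher genes without A/J ovalbumin mouse 1 and the most of both without A/J resiquimod mouse 1. No called value changed sign, while the uncalled differences of Muc5ac (-0.34 to 0.25), Guca2a (-0.03 to 0.19), Myh1 (-0.57 to 3.78) and Sbsn (-2.09 to 0.35) crossed 0 when 1 mouse was left out, and that of Il5 did without the squamous arrays. Where a call was lost, the cause was not tested.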
